A study of Mus musculus with 12 samples.

Results

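The antioxidant enzymes described here are 10 of the 50508 gene models of a single-cell RNA-seq table from the mouse enteric nervous system, chosen by name: the glutathione peroxidases Gpx1, Gpx3 and Gpx4, the peroxiredoxins Prdx1, Prdx2 and Prdx6, the superoxide dismutases Sod1 and Sod2, catalase (Cat) and haem oxygenase 1 (Hmox1). All 10 had at least 1 UMI (unique molecular identifier, which marks a captured transcript molecule). Cells positive for the Dclk1-tdTom reporter were sorted from LMMP (longitudinal muscle and myenteric plexus) preparations of C57BL/6 mice into 96-well plates by CD49b, the integrin alpha 2 chain, and the labels call CD49b− cells neuronal and CD49b+ cells glial. Every mouse received 3 mg tamoxifen at 8 or 9 weeks of age and was sampled 10 days later. Homeostasis mice had no other treatment, and irradiated mice received 10.5 Gy on day 7 after tamoxifen, 3 days before collection. The 4 groups of gate and treatment had 3 plates each. A plate held cells pooled from 2 mice, and the CD49b− and CD49b+ plates of 1 replicate came from the same mice. The reporter marks only cells in which it was switched on, so other neurons and glia of the plexus were not sampled, and the alleles behind it are not spelled out in the labels.

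Superoxide dismutases turn superoxide into hydrogen peroxide, Sod1 mainly in the cytosol and Sod2 in mitochondria. Catalase, the glutathione peroxidases and the peroxiredoxins then remove hydrogen peroxide, and the peroxidases and peroxiredoxins also remove organic peroxides. The glutathione peroxidases use glutathione as reductant, and most peroxiredoxins use thioredoxin. Gpx3 is the secreted glutathione peroxidase known from plasma, Gpx4 reduces lipid peroxides in membranes and guards against ferroptosis, and Prdx6 is a peroxiredoxin that uses glutathione. Hmox1 breaks down haem and is a classical target of the stress-responsive factor NRF2, encoded by Nfe2l2. Glial cells of the central nervous system are known to supply neurons with glutathione precursors.

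Of 1150 wells, 964 were retained, with 541729 to 746674 UMIs per plate in the CD49b− gate and 150561 to 243340 in the CD49b+ gate. The median well held 5904.5 to 8335 UMIs on the CD49b− plates and 2110 to 2680 on the CD49b+ plates, so depth moved with the gate. The 12 neuron markers summed to between 8076 and 9335 CPM (UMIs of a gene relative to all UMIs of its plate, on a common scale) on the CD49b− plates, against 321 to 487 on the CD49b+ homeostasis plates and 425 to 2026 on the CD49b+ irradiated plates. The 12 glia markers summed to between 26494 and 35167 CPM on the CD49b+ plates and between 86.8 and 331 CPM on the CD49b− plates. The neuron marker Uchl1 was at 0 in all 4 groups. The irradiated CD49b+ replicates 1 and 2 stood apart, since 1 well of replicate 1 and 3 wells of replicate 2 held more neuron marker than glia marker UMIs. In the CD49b− gate 3 wells, 2 on homeostasis replicate 3 and 1 on irradiated replicate 3, held more glia than neuron marker UMIs. In these 3 wells fibroblast markers, at 73 to 160 UMIs, exceeded both. A further well of irradiated CD49b− replicate 3 held 93 fibroblast marker UMIs against 5 neuron and 5 glia marker UMIs. Gpx3 is given below with and without some of these wells between gates, after irradiation in CD49b+ plates and between well classes. For irradiation in CD49b− plates no value without these wells is given. Macrophage, lymphocyte, endothelial, epithelial, mesothelial and red blood cell markers each summed to at most 67.2 CPM on every plate. Of these, the sum of the 10 macrophage markers moved with the gate without overlap, at 24.4 to 51.7 CPM on CD49b− and 0 to 12.3 CPM on CD49b+ plates. Not every marker followed the sum. C1qa was at 0 in all 4 groups, C1qb had UMIs in the homeostasis CD49b+ group only, and Lyz2 was at 0 in the irradiated CD49b− and the homeostasis CD49b+ group. The 7 smooth muscle markers summed to 139 to 459 CPM on CD49b+ plates and 6.55 to 183 CPM on CD49b− plates, with overlap. Single markers did not all follow this sum. Myh11, Tagln, Des and Cnn1 were at 0 in the irradiated CD49b+ group, and Myh11 also in the homeostasis CD49b+ group. All 7 had UMIs in the irradiated CD49b− group, while Tagln, Des and Cnn1 were at 0 in the homeostasis CD49b− group. The 3 markers of interstitial cells of Cajal, the pacemaker cells of the gut, summed to 213 to 372 CPM on CD49b− plates and 10.5 to 78.1 CPM on CD49b+ plates, again without overlap. Their defining markers Kit and Ano1 were both at 0 in the irradiated CD49b− and the homeostasis CD49b+ group, where Etv1 alone gave the sum. The part of these cell types in the gate results was not tested.

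Gpx3, whose gene lies on chromosome 11 from 54902453 to 54910377 of GRCm38 (plus strand), is one of 3 members called lower in the CD49b+ gate, together with Prdx2 (chromosome 8, 84969587 to 84974834, plus strand) and Sod1 (chromosome 16, 90220754 to 90226329, plus strand). Their promoters are shown because these 3 genes moved in the same direction between the gates. Each runs from 250 bases before to 50 bases after the start site in RefSeq (GRCm38.p6), 5′ to 3′ on the strand of the gene: chr11:54902604-54902903 for Gpx3, chr8:84969372-84969671 for Prdx2 and chr16:90220512-90220811 for Sod1. Capitals mark matches, on either strand, to 3 motifs: the antioxidant response element TGACNNNGC bound by NRF2, the TATA box TATAAA and the GC box GGGCGG.
Gpx3: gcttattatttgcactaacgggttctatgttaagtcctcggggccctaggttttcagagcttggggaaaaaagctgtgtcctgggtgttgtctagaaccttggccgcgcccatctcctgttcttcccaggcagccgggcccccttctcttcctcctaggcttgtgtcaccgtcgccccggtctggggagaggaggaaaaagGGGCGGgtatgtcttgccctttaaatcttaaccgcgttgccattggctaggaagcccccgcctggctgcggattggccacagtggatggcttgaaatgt
Prdx2: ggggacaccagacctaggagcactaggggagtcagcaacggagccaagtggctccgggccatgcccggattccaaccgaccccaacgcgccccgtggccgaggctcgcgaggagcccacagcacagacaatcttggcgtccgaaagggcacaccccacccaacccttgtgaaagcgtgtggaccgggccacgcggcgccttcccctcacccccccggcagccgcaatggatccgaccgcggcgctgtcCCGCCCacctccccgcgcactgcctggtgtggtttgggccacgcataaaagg
Sod1: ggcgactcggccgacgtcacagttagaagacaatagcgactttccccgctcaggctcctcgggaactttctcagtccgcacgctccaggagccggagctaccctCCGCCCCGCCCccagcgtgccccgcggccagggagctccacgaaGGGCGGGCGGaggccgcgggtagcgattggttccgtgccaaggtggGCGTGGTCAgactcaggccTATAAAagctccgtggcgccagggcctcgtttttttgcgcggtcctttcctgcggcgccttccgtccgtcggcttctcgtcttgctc

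The Gpx3 promoter held 1 GC box, on the plus strand at base 202 of the window, and neither of the other motifs. This window, set by the RefSeq start, lies wholly inside the GENCODE gene span given above, which starts further upstream at 54902453. The bases before that GENCODE start were not searched. Prdx2 also held 1 GC box match only, at base 249 on the minus strand. The Sod1 promoter held 1 antioxidant response element at base 195 (minus strand), 1 TATA box at base 214 and 4 GC boxes, 2 overlapping pairs. Of 32851 mouse promoters of the same length, 12.4% held the antioxidant response element, 13.6% the TATA box and 35.7% the GC box. A promoter entry was found for 8 of the 10 members, and apart from Sod1 only Prdx1 had an antioxidant response element match in any of its entries, at base 118 on the minus strand. These are matches of letters and no measurement of binding.

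Gpx3 was abundant in the neuronal gate and nearly absent from the glial gate of unirradiated mice. In CD49b− homeostasis plates it stood at 1052, 719 and 1014 CPM (replicates 1 to 3; mean 929 ± 182, SD, n = 3), on library sizes normalised by TMM (trimmed mean of M values), as are all plate levels below. In CD49b− irradiated plates it stood at 804, 747 and 1090.0 CPM (880 ± 184). In CD49b+ homeostasis plates it stood at 0, 11.1 and 5.36 CPM, which is 3 UMIs in 3 of 223 wells against 1735 UMIs in 238 of 262 CD49b− homeostasis wells. All 6 CD49b− plates lay above all 6 CD49b+ plates. Across both treatments the level was lower by 4.37 on the log2 scale in CD49b+ plates (SE 0.523; edgeR quasi-likelihood test, Benjamini-Hochberg adjusted p = 1.57e-07; lower in 6 of 6 mouse pools). The ratio of summed counts differed between the treatment groups, but the test of that difference, given below, did not call Gpx3 (edgeR adjusted p = 0.0588). From summed counts over all retained UMIs, the ratio of CD49b− to CD49b+ was 156 in homeostasis (exact 95% interval 53.3 to 757, counting error only) and 2.68 in irradiated plates (2.29 to 3.15), where the CD49b+ plates stood at 636, 326 and 0 CPM. Over both treatments it was 5.29 (4.54 to 6.19). Without the 4 CD49b+ wells with more neuron than glia markers and the 3 CD49b− wells with the reverse, the ratio was 152 in homeostasis, 8.29 in irradiated plates (6.26 to 11.2) and 16.4 over both (12.5 to 21.9). The fitted log2 fold change was then −5.10 (edgeR adjusted p = 1.14e-10). With each well thinned to 1000 UMIs, 48.0% ± 8.29 of CD49b− homeostasis wells kept a Gpx3 UMI, against 0.463% ± 0.802 of CD49b+ homeostasis wells. Without thinning these shares were 90.9% and 1.42%.

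**Figure D1:**
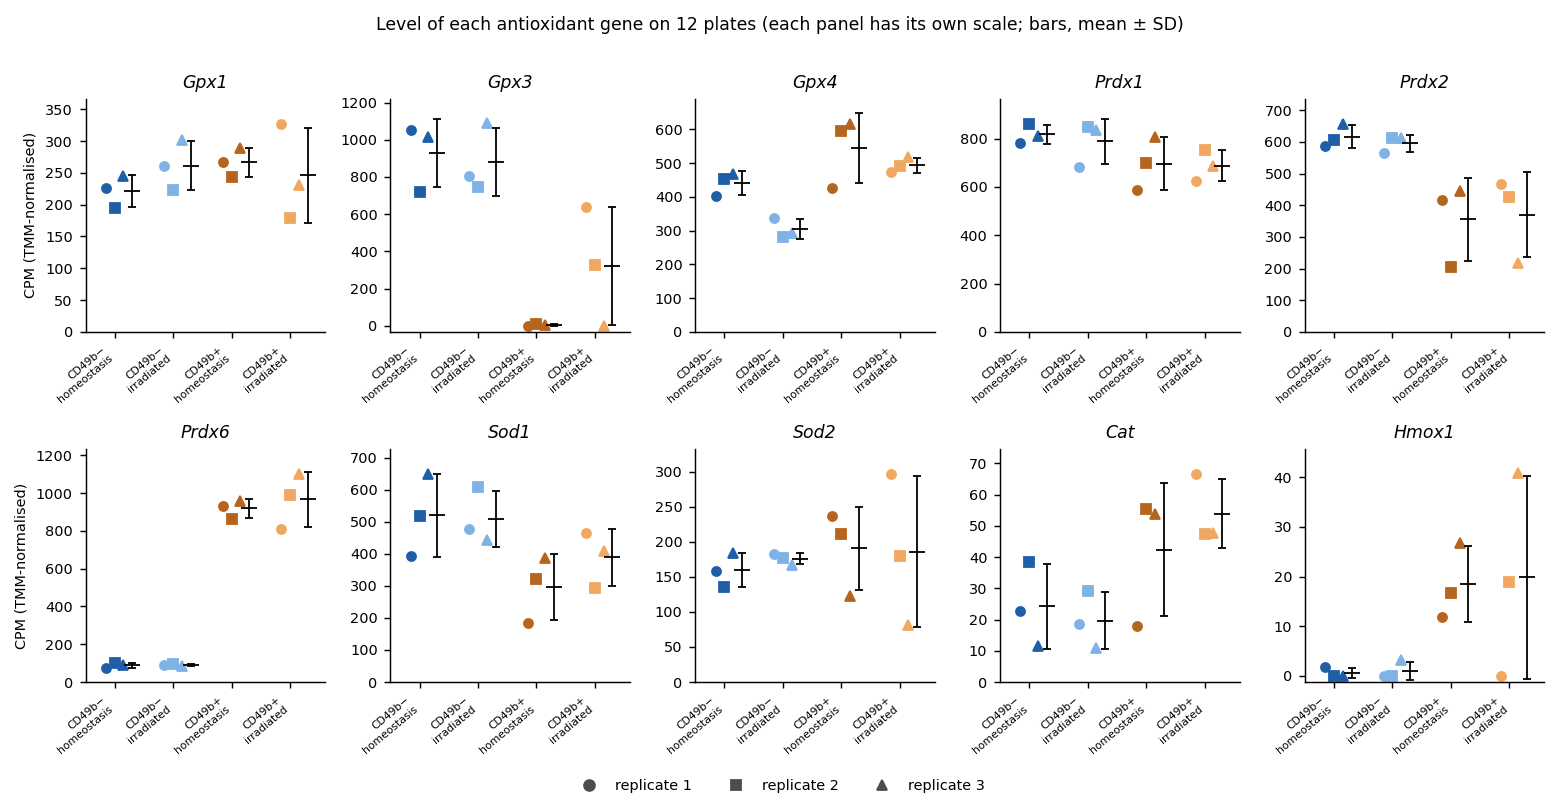
Level of each of the 10 genes (TMM-normalised CPM, linear axis, 1 scale per panel) on each of 12 plates by group; symbols are replicates numbered within a treatment, and bars are mean ± SD of 3 plates. Gpx3 is high on all CD49b− plates and on 2 irradiated CD49b+ plates (636 and 326 CPM), and Prdx6 is high on all 6 CD49b+ plates.

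Prdx6 showed the opposite arrangement. This gene (chromosome 1, 161240112 to 161251219, minus strand) stood at 931, 866 and 960.0 CPM in CD49b+ homeostasis plates and at 812, 988 and 1102 CPM in CD49b+ irradiated plates. In CD49b− plates it stood at 73.7, 100.4 and 90.6 CPM in homeostasis and at 91.2, 96.0 and 87.3 CPM after irradiation. The lowest CD49b+ plate was thus far above the highest CD49b− plate. Prdx6 was higher in the CD49b+ gate by 3.39 on the log2 scale (SE 0.159, edgeR adjusted p = 1.07e-14; higher in 6 of 6 pools), a 10.4-fold difference. A Prdx6 UMI remained in 60.1% ± 4.46 of CD49b+ homeostasis wells thinned to 1000 UMIs, against 5.82% ± 1.69 of CD49b− homeostasis wells. Of the 31-base words of Prdx6 transcripts, 2.34% occurred in another gene model, most often Prdx6b, which held 93 UMIs over all retained wells.

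In all, 9 members had enough counts to be tested between the gates, among 8555 genes. Of these, 3 were called higher in CD49b+ plates (Prdx6, Gpx4, Cat) and 3 lower (Gpx3, Prdx2, Sod1) at an adjusted p under 0.05. Of all tested genes, 29.6% were called higher and 32.4% lower, so the 2 gates differed broadly and the members were called about as often as other genes. Plates did not overlap between the gates for 1 member that was higher (Prdx6) and 2 that were lower (Gpx3, Prdx2), against 16% and 19.4% of all tested genes. The median log2 fold change was 0.08 over the 9 members and −0.13 over all tested genes.

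Among the glutathione peroxidases, Gpx4 (chromosome 10, 80047166 to 80056439, plus strand) went against Gpx3. Its level was 427, 594 and 617 CPM in CD49b+ homeostasis plates and 473, 492 and 517 CPM in CD49b+ irradiated plates, against 402, 453 and 467 CPM and 338, 282 and 292 CPM in the matching CD49b− plates. The gates overlapped in homeostasis, where the lowest CD49b+ plate lay below 2 of the CD49b− plates. The difference was 0.51 on the log2 scale (SE 0.147, edgeR adjusted p = 0.00471; higher in 6 of 6 pools). Without the filter on low counts the value was 0.38 and the call was lost (adjusted p = 0.0969). Of the 31-base words of Gpx4 transcripts, 38.9% also occurred in another gene model, most often the pseudogene Gpx4-ps2, so reads may have been divided between them. Gpx1, the cytosolic glutathione peroxidase (chromosome 9, 108338903 to 108340343, plus strand), ranged from 194 to 301 CPM on CD49b− plates and from 180 to 327 CPM on CD49b+ plates. Its gate difference was 0.08 (2 SE either side: −0.25 to 0.42) and did not pass the test.

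Among the other peroxiredoxins, Prdx2, a cytosolic thioredoxin-dependent enzyme, ranged from 564 to 657 CPM on CD49b− plates and stood at 415, 205 and 445 CPM in CD49b+ homeostasis plates and 467, 425 and 218 CPM in CD49b+ irradiated plates. No CD49b+ plate reached a CD49b− plate. The gene was lower in CD49b+ plates by 0.74 on the log2 scale (coded as −0.74, SE 0.187, edgeR adjusted p = 0.00167, 6 of 6 pools). Prdx2 overlaps Rnaseh2a and Junb on the opposite strand, and whether counting used strand is not given in the sources used here. Prdx1, which shares this chemistry (chromosome 4, 116685544 to 116700822, plus strand), ranged from 682 to 861 CPM on CD49b− plates and from 587 to 804 CPM on CD49b+ plates. It was lower in CD49b+ in all 6 pools, but the difference of −0.21 (2 SE either side: −0.50 to 0.08) did not pass the test.

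Both dismutases and catalase were less clear cut. Sod1 stood at 393, 517 and 650.0 CPM in CD49b− homeostasis plates and 479, 609 and 443 CPM in CD49b− irradiated plates, against 184, 322 and 386 CPM and 467, 293 and 408 CPM in the matching CD49b+ plates. The gates overlapped in range, but within each of the 6 pools the CD49b+ plate was the lower one (log2 fold change −0.60, SE 0.187, edgeR adjusted p = 0.00768). Thinning every well to 1000 UMIs, which gives shallow and deep wells equal weight, ended the calls of both Sod1 (log2 fold change −0.20, adjusted p = 0.459) and Prdx2 (−0.35, adjusted p = 0.146). Sod2 (chromosome 17, 13006846 to 13040063, plus strand) ranged from 135 to 184 CPM on CD49b− plates and from 81.6 to 297 CPM on CD49b+ plates, with a difference of 0.17 (2 SE either side: −0.26 to 0.61) that did not pass the test.

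Cat (chromosome 2, 103453849 to 103485160, minus strand) was scarce, with 80 UMIs on CD49b− plates and 51 on CD49b+ plates. Its levels were 22.8, 38.5 and 11.5 CPM in CD49b− homeostasis plates, 18.7, 29.1 and 10.9 CPM in CD49b− irradiated plates, 17.8, 55.5 and 53.6 CPM in CD49b+ homeostasis plates and 66.7, 47.3 and 47.6 CPM in CD49b+ irradiated plates. Except for homeostasis replicate 1, the CD49b+ plate of a pool was the higher one (log2 fold change 1.13, SE 0.369, edgeR adjusted p = 0.0106). The call was lost without CD49b+ homeostasis replicate 3 (adjusted p = 0.0512). Hmox1 (chromosome 8, 75093621 to 75100589, plus strand) did not pass the filter on low counts and was not tested with all plates. It had 3 UMIs on the CD49b− plates and 20 on the CD49b+ plates, a ratio per UMI sequenced of 23.8 (exact 95% interval 7.05 to 125, counting error only). Of the 6 CD49b+ plates, 5 held Hmox1 UMIs, and irradiated replicate 1 held none. Hmox1 entered the test under 5 of 23 alternatives, without the low-count filter or with CD49b+ replicate 1 or 2 of either treatment left out. It was called higher in CD49b+ plates in all 5 (log2 fold change 4.01 to 4.39, edgeR adjusted p from 2.90e-06 to 0.000583). With a plate left out it passed the filter through the CD49b+ plates, where it is high, so these calls are no independent support.

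**Figure D2:**
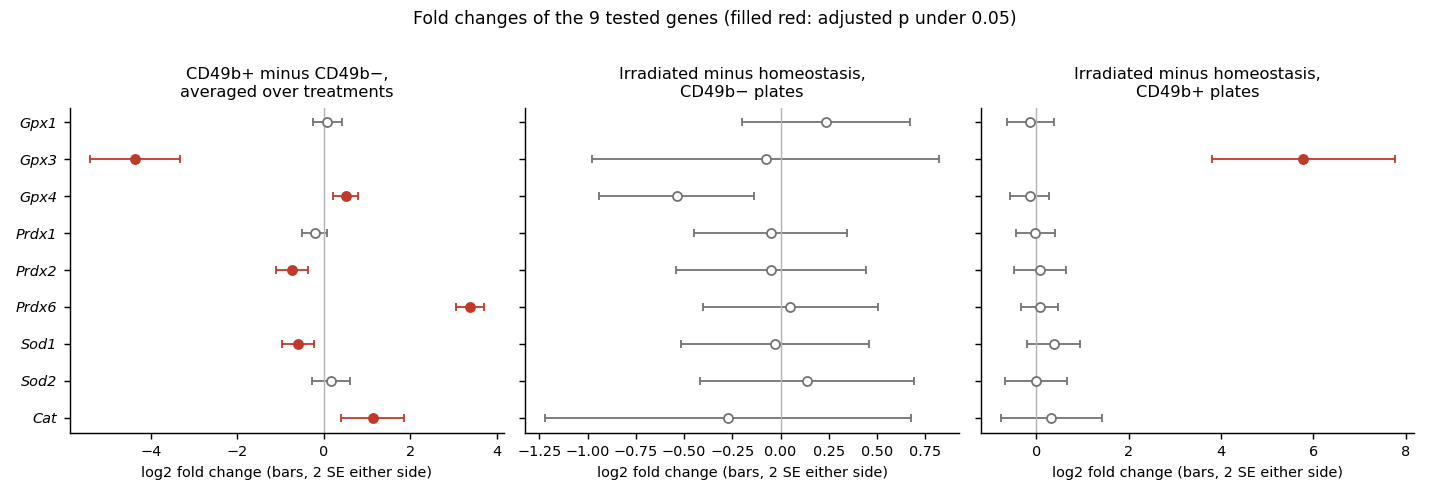
Log2 fold changes of the 9 tested genes (points, with bars of 2 SE either side; horizontal axes differ between panels) for the gate and for irradiation within each gate. In the gate panel 6 genes pass an adjusted p of 0.05, none passes in CD49b− plates after irradiation, and Gpx3 alone passes in CD49b+ plates.

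The wider antioxidant system was divided between the gates in a similar mixture. Of 105 genes in 10 lists, 72 were tested, of which 23 were higher and 23 lower in CD49b+ plates, 31.9% in each direction. This is near the 29.6% and 32.4% of all tested genes, and no difference between the lists was tested. Of 12 tested glutathione transferases, 7 were higher and 2 lower, with Gsta4 (log2 fold change 7.39, SE 0.345), Gstt1 (2.92, SE 0.252) and Gstk1 (3.97, SE 0.501) among the higher ones. Gsta4, which detoxifies the lipid peroxidation product 4-hydroxynonenal, had mean levels of 6.42 and 0.52 CPM in the CD49b− groups and 516 and 341 CPM in the CD49b+ groups, homeostasis before irradiated in each. Of 5 other glutathione peroxidases and peroxiredoxins, 3 were higher, namely Gpx8 (5.0, SE 0.407), Gpx7 (1.62, SE 0.335) and Prdx4 (0.89, SE 0.209), all 3 enzymes of the endoplasmic reticulum. The mitochondrial Prdx3 was the 1 lower gene (−0.98, SE 0.242).

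Of 12 tested thioredoxin and glutaredoxin genes, 7 were lower and 2 higher in CD49b+ plates. Txn1, the cytosolic thioredoxin that reduces Prdx1 and Prdx2, was lower (−1.04, SE 0.155), as were the thioredoxin reductase Txnrd1 (−1.53, SE 0.384) and the mitochondrial Txn2 (−0.78, SE 0.197). Txnip, which binds and inhibits thioredoxin, was higher (4.85, SE 0.297), with mean levels of 307 and 460 CPM in the CD49b+ groups and 14.5 and 10.9 CPM in the CD49b− groups. Of 8 tested genes of NADPH supply, 4 were lower, led by Idh2 (−1.19, SE 0.239), Idh1 (−1.35, SE 0.296) and Tkt (−0.94, SE 0.248), and Taldo1 was higher (0.75, SE 0.180). Of 3 tested genes of glutathione synthesis and recycling, Gclm (−0.69, SE 0.243) and Gsr (−0.72, SE 0.310) were lower.

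The NRF2 system had 3 higher and 4 lower genes of 8 tested. Nfe2l2 itself was higher in CD49b+ plates (2.34, SE 0.390), as were the small Maf partners Maff (3.73, SE 0.402) and Mafk (4.24, SE 0.503). Its inhibitor Keap1 (−1.44, SE 0.340), the small Maf protein Mafg (−1.29, SE 0.305) and the autophagy receptor Sqstm1 (−1.45, SE 0.191) were lower. Of 6 tested genes of haem breakdown and ferritin, the ferritin chains Fth1 (0.85, SE 0.157) and Ftl1 (1.10, SE 0.318) were higher and the constitutive haem oxygenase Hmox2 was lower (−1.70, SE 0.252), the reverse of the UMI counts of Hmox1. Of 13 selenoprotein genes, 3 were higher, namely the selenium carrier Selenop (3.86, SE 0.219), Selenof (1.45, SE 0.151) and Selenom (0.45, SE 0.158), and Selenow was lower (−1.18, SE 0.153). Of 3 oxidant producers, Cyba, a subunit of the NADPH oxidases (5.98, SE 0.288), and Maob (2.08, SE 0.314) were higher and Maoa was lower (−1.64, SE 0.448). None of the 2 tested genes of the remaining list, Sod3 and the copper chaperones, was called. Each gene named here had an edgeR adjusted p under 0.05 over all tested genes. With wells thinned to 1000 UMIs, 13 genes of the lists were called higher and 6 lower. Over all genes 2392 were then tested instead of 8555, with 791 called higher and 738 lower.

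In CD49b− cells none of the 9 tested members was called 3 days after irradiation. The smallest adjusted p was 1 by edgeR, and over all 8555 genes 0.0468% were called higher and 0% lower. Against 4.14% of all tested genes, 1 member had an unadjusted p under 0.05. This was Gpx4, at 402, 453 and 467 CPM in homeostasis and 338, 282 and 292 CPM after irradiation, with no overlap of the plates. Its log2 fold change was −0.54 (SE 0.20, edgeR unadjusted p = 0.0126, adjusted p = 1). Within plate set A, the only set with both treatments, the value was −0.25 from 1 plate a group. Plates did not overlap for 6.45% of all tested genes in the higher and 6.34% in the lower direction, and for 0 and 1 members. For Gpx3 the log2 fold change was −0.08, and 2 SE either side reached from −0.97 to 0.82. Of the wider lists, 0 of 72 genes were called in either direction and 2 had an unadjusted p under 0.05, again against 4.14%.

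In CD49b+ cells Gpx3 was the 1 member called after irradiation, and its UMIs came from 2 of the 3 plates. The irradiated plates stood at 636, 326 and 0 CPM (321 ± 318, SD, n = 3), against 0, 11.1 and 5.36 CPM in homeostasis, so the groups overlapped. The summed counts were 174 UMIs against 3, a ratio per UMI sequenced of 54.4 (exact 95% interval 18.3 to 267, counting error only), and the fitted log2 fold change, which depends on the prior count, was 5.78 (SE 0.991, edgeR adjusted p = 0.00657). Of all tested genes, 0.666% were called higher and 0.0468% lower in this comparison. Non-overlapping plates were found in 6.72% of genes in the higher and 4.21% in the lower direction, and in 0 members. Within plate set A the 2 plates held 0 and 636 CPM.

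Most of these Gpx3 UMIs lay in the 4 wells with more neuron than glia marker UMIs. The single such well of irradiated replicate 1 held 64 Gpx3 UMIs among 24748 in all, with 201 neuron and 142 glia marker UMIs. The 3 wells of replicate 2 held 16, 23 and 21 Gpx3 UMIs among 12699, 13170 and 11627. These wells were among the deepest of the gate, whose median well held 2110 to 2680 UMIs, and each carried markers of both classes. The other wells of replicate 1 held 41 Gpx3 UMIs in 30 of 68 wells, and those of replicate 2 held 9 in 9 of 81 wells. Replicate 3 held 0 in 60 wells, which allows a share of up to 5.96% of wells with a UMI (exact 95% limit).

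Without the 4 wells, and with the 3 CD49b− wells also left out, the fitted log2 fold change of Gpx3 was 4.17 and the adjusted p 0.0789, so the call was lost. The ratio of summed counts became 17.5 (5.66 to 87.9). The call was also lost without CD49b+ homeostasis replicate 3 (adjusted p = 0.0624), and Gpx3 was too rare to be tested when only the CD49b+ plates were fitted. Neuron markers moved with this result: in the remaining wells they summed to 1082, 559 and 425 CPM on irradiated replicates 1, 2 and 3, against 430, 487 and 321 CPM on the homeostasis plates. Per neuron marker UMI there were 0.237 Gpx3 UMIs in the remaining wells of irradiated replicate 1 and 0.0783 in those of replicate 2, compared with 0.0756 to 0.110 on the CD49b− plates. The other CD49b+ plates were lower, at 0 on irradiated replicate 3 (of 64 neuron marker UMIs) and at 0, 0.0230 and 0.0164 on homeostasis replicates 1 to 3. The part of these markers in the Gpx3 result beyond leaving out the 4 wells was not tested.

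**Figure D3:**
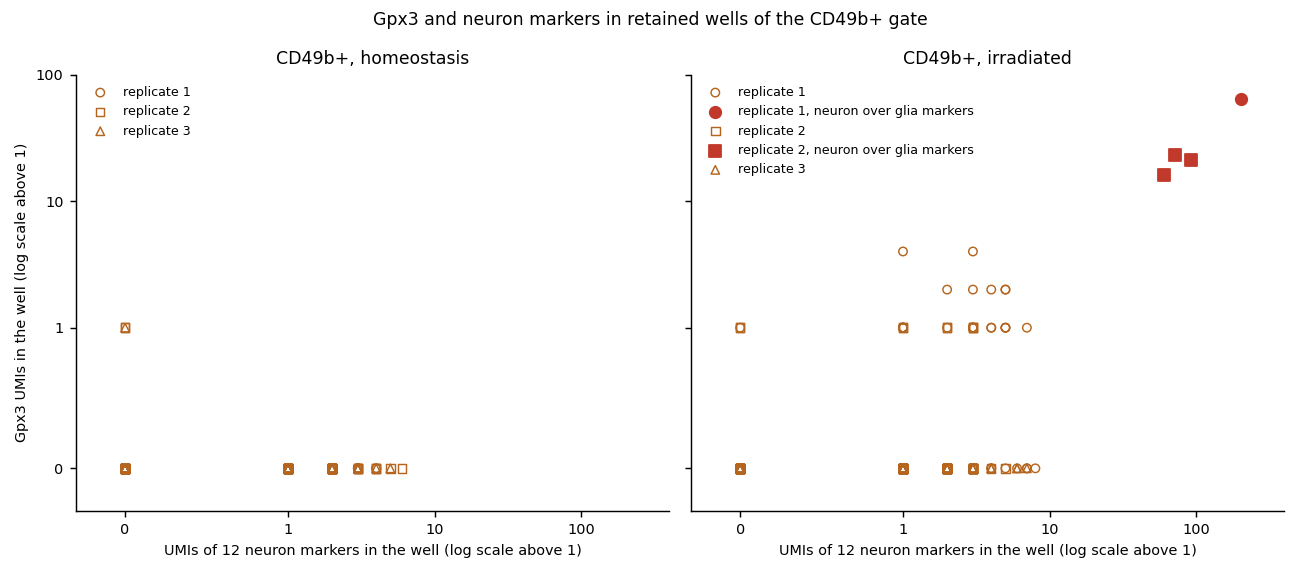
Gpx3 UMIs against summed UMIs of 12 neuron markers in each retained CD49b+ well (both axes logarithmic above 1), by replicate; filled red symbols are wells with more neuron than glia marker UMIs. The 4 red wells hold 16 to 64 Gpx3 UMIs, every other well holds 4 or fewer, and the homeostasis wells hold at most 1.

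The genes whose plate levels were most like those of Gpx3 were neuronal. After the mean of each gate was subtracted, Pearson's r of log2 CPM over the 12 plates, compared over 8554 genes, was 0.99 for the neuronal intermediate filament gene Prph, 0.98 for the neuronal microtubule regulator Stmn2, 0.98 for Resp18, 0.98 for the G protein subunit Gng3 and 0.97 for Nacad. These values are descriptions, since the CD49b+ plates share the same outlying libraries. Prph stood at 491, 184 and 6.80 CPM on the irradiated and 5.93, 22.2 and 16.1 CPM on the homeostasis CD49b+ plates, high on the same 2 plates as Gpx3.

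The other 8 tested members were not called in CD49b+ plates after irradiation, and all their groups overlapped. Sod1 had the largest shift of them, from 184, 322 and 386 CPM to 467, 293 and 408 CPM (log2 fold change 0.37, SE 0.283, edgeR adjusted p = 0.696). For Gpx4 the value was −0.15 (2 SE either side: −0.58 to 0.28). Hmox1 had 10 UMIs in each treatment. None of the 72 wider genes was called, and 11 had an unadjusted p under 0.05, against 10.6% of all tested genes.

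The test of whether irradiation acted differently in the 2 gates called none of the members. For Gpx3 the difference of the fitted log2 fold changes was 5.86 (SE 1.14, edgeR adjusted p = 0.0588), and 0.0117% of all tested genes were called higher and 0% lower. Without the 4 wells described above and the 3 CD49b− wells the value was 4.21 (edgeR adjusted p = 0.478, with 8219 genes tested). With irradiated CD49b+ replicate 3, the plate without Gpx3, left out, it was 6.43 and passed the threshold (adjusted p = 4.35e-07). With the mouse pool as a block the adjusted p was 0.158.

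Within the neuronal gate Gpx3 varied strongly from well to well. Of 528 retained CD49b− wells, 62 held no Gpx3 UMI. The median well held 5.15 UMIs per 10000, the 10th percentile 0 and the 90th 17.0, and the richest well 78.9. The 53 wells with the most Gpx3 UMIs held 36.0% of them. The same share was 21.5% for Prdx1, 23.2% for Prdx2 and 28.1% for Sod1, so Gpx3 was spread less evenly than these 3. Prdx6, which was at 0 in 303 of these wells, reached 42.3%. The CD49b− well with the most Gpx3 UMIs, 57 on homeostasis replicate 3, and the richest well, with 26 of 3295 UMIs on irradiated replicate 3, were both among the 4 wells with more fibroblast than neuron marker UMIs.

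**Figure D4:**
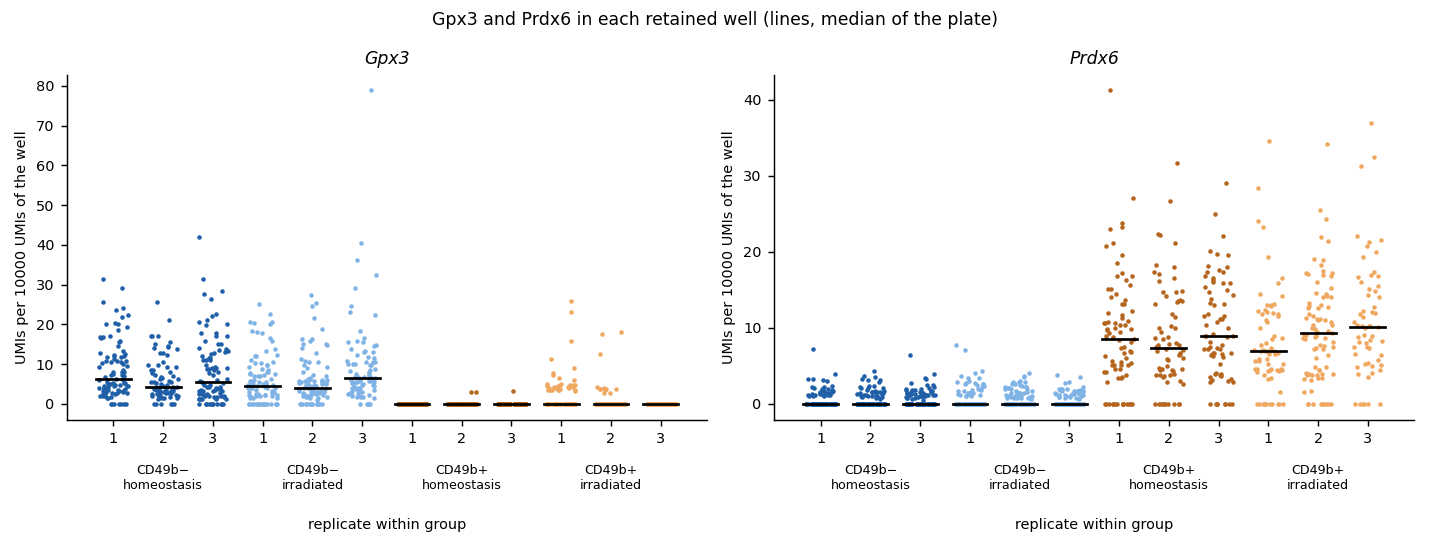
Gpx3 and Prdx6 UMIs per 10000 UMIs in each retained well of the 12 plates (points; horizontal lines are plate medians). CD49b− wells spread from 0 to 78.9 for Gpx3, while the medians of all CD49b+ plates are at 0, and Prdx6 shows its high medians on the CD49b+ plates.

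Gpx3 also differed between wells grouped by transmitter class, though how much of this spread went with class was not measured. Enteric motor neurons and interneurons fall broadly into inhibitory ones that make nitric oxide through Nos1 and excitatory ones that make acetylcholine. Wells with a Nos1 UMI and no UMI of Chat, Slc18a3 or Slc5a7 (114 Nos1 wells) were compared with wells with the reverse (182 cholinergic wells), with the plate as a block. A further 225 wells held UMIs of both classes and did not enter. Gpx3 was lower in the Nos1 wells of all 6 plates. On the homeostasis plates the Nos1 wells stood at 715, 778 and 1160 CPM and the cholinergic wells at 1351, 889 and 1350 CPM. On the irradiated plates the values were 653, 532 and 830.4 CPM against 922, 1039 and 1319 CPM. The ranges of the 2 classes overlapped across plates. The log2 fold change was −0.54 (SE 0.107, edgeR adjusted p = 0.000452). Without the 2 Nos1 wells and 1 cholinergic well that held more glia or fibroblast than neuron markers, an alternative chosen after seeing the data, it was −0.71 (adjusted p = 6.00e-06). Thinning wells to 1000 UMIs left −0.78 but ended the call (adjusted p = 0.0790, with 310 genes tested). Nos1 wells had the higher median UMI count on 4 of the 6 plates.

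Between these classes 8 members could be tested, and Gpx3 was the 1 called lower with 0 called higher, against 5.73% and 7.39% of 2965 genes. Prdx6 leaned the other way, at 122 ± 38.8 CPM in Nos1 wells and 81.9 ± 15.8 CPM in cholinergic wells (n = 6 plates), and was higher in the Nos1 wells of 5 plates, but did not pass (log2 fold change 0.59, SE 0.250, edgeR adjusted p = 0.144). Of 30 tested genes of the wider lists, 3 were called higher in Nos1 wells and 0 lower. They were the ferritin heavy chain Fth1 (0.49, SE 0.080, edgeR adjusted p = 3.90e-05), Idh1, which supplies NADPH (0.71, SE 0.225, adjusted p = 0.0345), and Sqstm1 (0.33, SE 0.097, adjusted p = 0.0204).

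**Figure D5:**
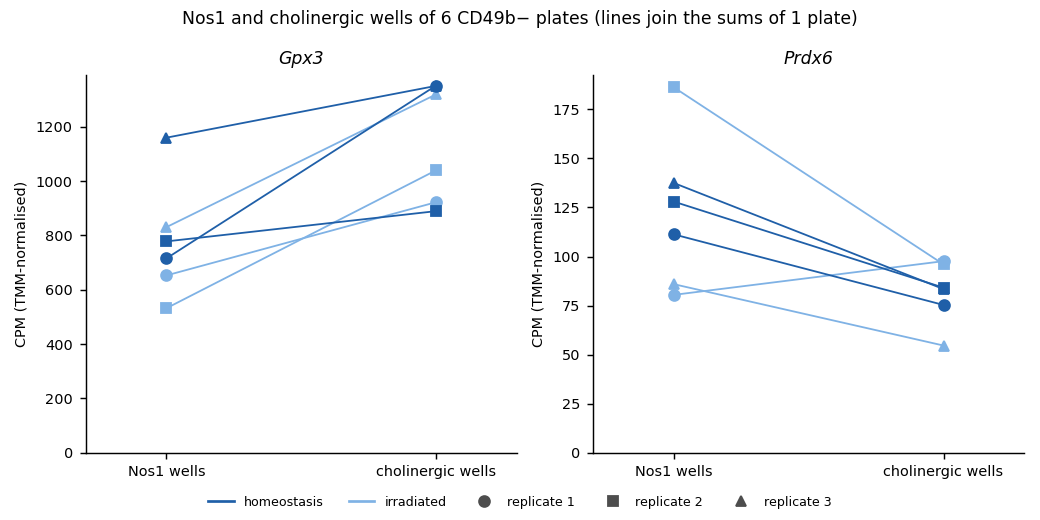
Gpx3 and Prdx6 (TMM-normalised CPM) in Nos1 wells and cholinergic wells of the 6 CD49b− plates; each line joins the sums of 1 plate. All 6 Gpx3 lines rise towards the cholinergic wells, and 5 of the 6 Prdx6 lines fall.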

How the data were processed

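Per the file headers and the labels, the authors deposited 1 table of UMI counts per gene and well, with no normalisation: 50508 gene models by 1150 wells on 12 plates, every column mapped to its plate by name (0 left unused). Lysis and reverse transcription in the plate were followed by Nextera XT library preparation, per the labels' protocols. The submitters' processing notes name 2 builds, GRCm38 and GRCh38, with the aligner STAR (2.5.3a) and the counter featureCounts (1.5.3). The strand setting and how UMIs were collapsed are not given in the sources used here. The 12 plates shared 95 well barcodes, so a well is identified by plate and barcode together.

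Wells under 1000 UMIs or 500 genes, or with 20% or more mitochondrial UMIs, were left out, which kept 964 wells and 5119450 of 5159668 UMIs. Plate sums were fitted in edgeR 4.0.16 (R 4.3.3) with TMM, filterByExpr and 4 group means, and contrasts were assessed by quasi-likelihood F tests with Benjamini-Hochberg adjustment over all tested genes at 0.05. The Nos1 comparison used sums per plate and well class with the plate as a block. The settings were tested on simulated data. Of 2-fold changes, 53 of 93 were recovered between the gates and 38 of 90 for irradiation in CD49b− plates. For irradiation in CD49b+ plates 15 of 95 were recovered, and for the interaction 7 of 91. Of 4-fold changes, 93 of 95, 88 of 93, 66 of 91 and 48 of 94 were recovered in the same order. Changes of 2-fold that were not called may thus have been missed. False calls numbered 8, 11, 2 and 1 in the same order. Intervals of counts and shares are exact (Clopper-Pearson, 95%) and cover counting error only. Ratios and other values called per UMI sequenced use all retained UMIs, and so do summed marker levels. Positions come from GENCODE vM21 (GRCm38) and promoters from RefSeq. Alternatives covered the normalisation, DESeq2 1.42.0, the filters on genes and wells, thinning, wells with markers of another class, each plate left out, the plate set and the mouse pool. The plate sets were inferred from plate numbers and indexes in the labels, which do not say what they stand for: set A held replicate 1 of each group, and the other sets held 1 treatment only.

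Mice shared by the gates pair the CD49b− and CD49b+ plates of a pool. The residuals of the plates of a pool, over 8555 genes, had correlations of 0.184, 0.113 and −0.0336 in the irradiated pools and 0.0971, 0.0431 and 0.0587 in the others.

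The members, gene lists and well classes were chosen with earlier results of these data known. Named were all members, at most 3 genes per list and direction with the smallest p among those called, and the 5 genes most like Gpx3 over the plates.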

Additional observations from a re-analysis of the deposited data

How the results depend on the processing

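The depth of the CD49b+ wells and the 3 plates per group limit these results, and Cat, Hmox1 and Gpx3 in CD49b+ plates rest on few UMIs. Of the values of called members between the gates, 143 of 143 kept their sign under the alternatives and 133 of 137 that carry a test kept their call. In CD49b− plates after irradiation none of 206 tested values became a call. With the mouse pool as a block the gate call of every member was kept, for example Gpx3 at −4.50 (adjusted p = 5.83e-07), and the interaction of Gpx3 was 5.57 (adjusted p = 0.158). Without the plate block the Nos1 difference of Gpx3 was −0.56 (adjusted p = 0.0157), and 1 of the wider genes was called higher instead of 3. For results that did not keep their count, the cause was not tested unless stated.

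Thinning wells to 1000 UMIs left 1 member called lower between the gates instead of 3 and 0 called lower in Nos1 wells instead of 1, with 2392 and 310 genes tested instead of 8555 and 2965. It turned Prdx1 between the gates to 0.11 and Gpx3 in CD49b− plates after irradiation to 0.01 (0.00828). Leaving out the wells with markers of another class left 0 members called higher in CD49b+ plates after irradiation, and so did fitting only these plates. Leaving out 1 plate gave 0 to 1. For the interaction 1 member, Gpx3, was called without the low-count filter and, as an alternative chosen after seeing the data, without the wells that held more fibroblast than neuron markers (5.85, adjusted p = 0.0453). Leaving out 1 plate gave 0 to 1 here too. Signs turned for uncalled values. Without the low-count filter Gpx1 between the gates was −0.04 (−0.0396), and with 1 plate left out it ranged from −0.0937 to 0.177. Sod2 ranged from −0.102 to 0.313 in the same way. For Gpx3 in CD49b− plates the plate set as a term gave 0.30 and leaving out 1 plate −0.255 to 0.0282. For Gpx4 in CD49b+ plates the plate set as a term gave 0.15 (0.148) and set A alone 0.15 (0.147).

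Over all tested genes, irradiation in CD49b+ plates gave 57 higher calls, but 105 with DESeq2, 150 without irradiated CD49b+ replicate 3, 4 without CD49b+ homeostasis replicate 3, 23 without the wells of another class and 10 with only that gate fitted. In CD49b− plates there were 4 higher and 0 lower calls, but 30 and 15 without the low-count filter. The interaction gave 1 higher call, but 33 with DESeq2, 63 without the filter and 86 without irradiated CD49b+ replicate 3. Scaling to total UMIs shifted the median log2 fold change of all genes by −0.127 in CD49b+ plates after irradiation and by −0.104 in the interaction, and Gpx3 stood at 5.63 and 5.74 on that scale.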

Other observations

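Gene pairs within the CD49b− gate were described over 525 wells, leaving out the 3 wells with more glia than neuron marker UMIs but not the further well rich in fibroblast markers. No p is given, since wells of 1 plate share their library and depth. These genes were chosen after their values were seen. Of 5253 genes, those with the highest correlation with Gpx3 were St6galnac3, a sialyltransferase (r 0.60, from 0.51 to 0.69 on single plates), Nrsn2 (0.45), the synuclein gene Sncg (0.44), Tagln3 (0.40) and Pcp4 (0.39). Those with the lowest were the small heat shock protein gene Cryab (−0.47), the immediate early gene Fos (−0.45), the transcription factor gene Nfix (−0.43), the immediate early gene Egr1 (−0.36) and the cytokine receptor gene Il11ra1 (−0.33). Among the members themselves correlations in these wells were weak, between −0.06 (Prdx1 with Sod1) and 0.19 (Prdx1 with Prdx2), and that of Gpx3 with Prdx6 was 0.04.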
